A study of Mus musculus with 20 samples.

Results

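The level difference described here was measured in 5 male C57Bl6 mouse embryos at embryonic stage E18.5, coded M1, M3, M5, M7 and M8. Each embryo gave 1 RNA sequencing library from the dorsal root ganglia (DRG) at spinal levels L4-L5, called lumbar, and 1 from the ganglia at L6-S1, called sacral. These 10 libraries, of 20 in the series, were chosen by their column names and paired by embryo code. Genes entered the comparison when their mean was at least 0 log2 RPKM at either level, where RPKM corrects the read count for library size and for the length of the gene, and 13749 of the 29049 genes with a value did so. Of these genes 12873 passed at both levels, 494 at the sacral level only and 382 at the lumbar level only. No embryo carried a transgene, an agent or an operation in the labels, and the whole ganglion was used, so neurons, glia and connective tissue were measured together. The other 10 libraries came from 5 female embryos, and they entered the model through a shared estimate of the spread and were used for a test of level by sex.

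DRG are the paired clusters of sensory neurons beside the spinal cord, and each neuron sends one branch to the periphery and another into the cord. Ganglia at L4-L5 supply mainly the hindlimb, with many proprioceptors that innervate muscle, whereas ganglia at L6-S1 also supply the pelvic organs. Hox genes are transcription factors arranged in clusters whose order along the chromosome follows their order of expression along the body, and paralog groups with higher numbers mark more caudal segments. The study asked which genes differ between these levels before birth.

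Between 21052189 and 28826340 reads per library could be recovered from the values of the 10 male libraries. The 2 mitochondrial ribosomal RNAs took between 20.82% of the reads, in lumbar M8, and 61.44%, in lumbar M5, which left 7077383 to 22051204 reads outside mitochondrial genes. Both libraries of M5 were the lowest in reads outside mitochondrial genes. Genes with a value numbered 21447 to 22800. The median of the 12 shared markers of sensory neurons lay between 4.46 and 5.73 log2 RPKM in lumbar DRG and between 4.74 and 5.43 in sacral DRG, so sensory neuron transcripts were plentiful at both levels. That the libraries of a group came from separate embryos was read from the codes in the labels and the paper's count of 5 male embryos. Each was a single library of its level.

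In male embryos 73 genes differed between the levels at an adjusted p of 0.05 (limma, embryo as a block, Benjamini-Hochberg over 13749 genes), which is 0.531% of the genes tested. Of these, 29 were upregulated in sacral DRG (0.211% of genes tested) and 44 in lumbar DRG (0.32%). The sacral genes included 4 posterior Hox genes, the neuropeptide precursor Cartpt and the nicotinic receptor subunits Chrna3 and Chrnb4. The lumbar genes included the more anterior Hoxc8 and Hoxb9, the neurotrophins Ntf3 and Bdnf, the calcium-binding protein Pvalb, the GABA receptor subunit Gabrg1 and the myelin genes Prx and Mbp. The median absolute log2 difference of the 73 genes was 1.20, against 0.159 over all genes tested, and 47 of them differed more than 2-fold, against 279 of all genes tested. Of the 73 genes 13 had passed the filter at 1 level only, through the level where they were higher, and 2 of the lumbar genes had no symbol. The smallest difference that passed was 0.41 on the log2 scale, and the standard error had a median of 0.182 over genes. In bulk ganglia fewer cells of a type and less RNA per cell cannot be told apart, for these genes and for all that follow.

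**Figure D1:**
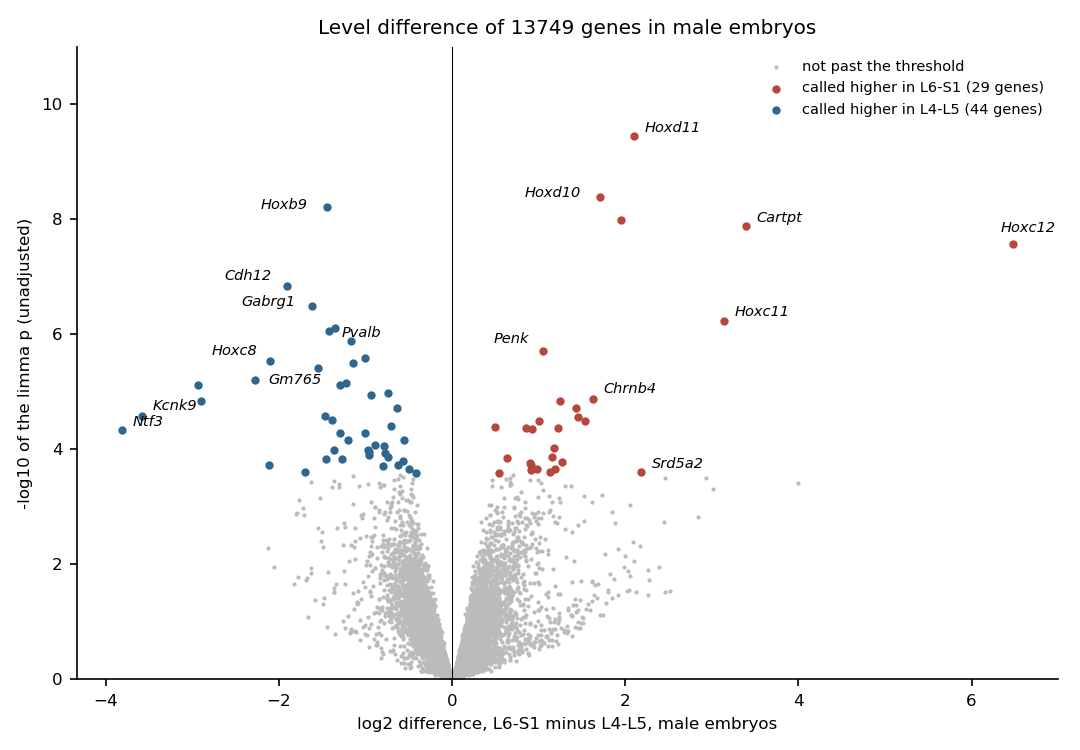
Log2 difference (sacral minus lumbar, log2 RPKM) of 13749 genes in 5 male embryos on the horizontal axis and −log10 of the unadjusted limma p on the vertical axis, with the 29 genes higher in sacral DRG and the 44 higher in lumbar DRG coloured. Most genes lie close to 0, and the called genes reach from -3.81 (Ntf3) to 6.48 (Hoxc12).

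The called genes were the same in direction in most embryos. All 5 embryos shared the direction in 71 of the 73 genes, against 12.1% of the genes tested. Lumbar and sacral values did not overlap in 65 of the 73, against 1.9% of the genes tested. The 73 were chosen by the p of these same libraries, so both counts follow largely from that choice and are description only. At an unadjusted p under 0.05 there were 801 genes higher in sacral DRG, 5.83% of those tested, and 900 higher in lumbar DRG, 6.55%. Counts of list members at this p, given below, are to be read beside these shares. Counts of list members called are to be read beside 0.211% for sacral and 0.32% for lumbar DRG. The block of embryo mattered to the count, since 21 genes passed without it, 7 sacral and 14 lumbar, and all 21 were among the 73.

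Leaving out 1 embryo reduced the count to 29 without M1, 44 without M3 and 23 without M5, and to 56 without M7 and 54 without M8. There were 19 genes that passed in each of these 5 fits, 8 sacral and 11 lumbar. Among them 15 also passed under every other processing tried that tested them, and these were Hoxc12, Cartpt, Hoxc11, Hoxd11, Gm20440, Hoxd10, Penk, Gm7271, Serpina3g, Hoxb9, Layn, Gabrg1, Cdh12, Hoxc8 and Gm765. The other 4 of the 19 were Chrnb4, Pvalb, Arf5 and Zswim7. At the other end, 14 of the 73 passed in none of the 5 fits without 1 embryo.

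The called Hox genes differed in direction by paralog group, and most tested genes of groups 1 to 9 were not called. Of 39 Hox genes (40 identifiers) 20 passed the filter, and of the 6 tested in paralog groups 10 to 13, 4 were upregulated in sacral DRG and none in lumbar DRG, with a median log2 difference of 1.90 and a range from 0.07 to 6.48. Of the 11 tested in groups 1 to 8, 2 were upregulated in lumbar DRG and none in sacral DRG. Their median was -0.41 and their range ran from -2.10 to 0.33. Hoxc12 and Hoxc11 had passed the filter through their sacral mean only, and Hoxc8, Hoxc4 and Hoxb6 through their lumbar mean only. These counts and medians therefore describe the genes that passed and support nothing by themselves. Group 9 had 3 genes tested, 1 of them higher in lumbar DRG, and a median of -0.08. Over all genes tested the median difference was -0.02.

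Hoxc12 was nearly absent from lumbar DRG. Its recovered reads in M1, M3, M5, M7 and M8 were 0, 3, 2, 0 and 4 in lumbar DRG and 266, 168, 56, 88 and 177 in sacral DRG. Every sacral library lay far above every lumbar library. The fitted log2 difference was 6.48 ± 0.75 (SE, n = 5 embryos, limma adjusted p = 6.22e-05), a size that rests on the 0.5 reads set for the 2 lumbar blanks, since a count of 0 allows up to 3 reads. Hoxc11, its neighbour in the cluster, gave 4, 13, 2, 36 and 33 reads in lumbar DRG and 83, 152, 43, 148 and 94 in sacral DRG in the same order of embryos. Its log2 RPKM rose by 3.14 ± 0.44 (SE, n = 5, limma adjusted p = 0.000878), with no overlap between the levels.

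Hoxd10 stood at 1.29, 1.58, 1.80, 2.06 and 1.78 log2 RPKM in the lumbar DRG of M1, M3, M5, M7 and M8 and at 3.50, 3.57, 3.51, 3.13 and 3.32 in their sacral DRG. The lowest sacral value was above the highest lumbar value by more than the range within either level. The difference was 1.70 ± 0.17 (SE, n = 5, limma adjusted p = 2.74e-05). For Hoxd11 the lumbar values were 0.39, 1.57, 1.23, 1.52 and 1.34 log2 RPKM and the sacral values 3.25, 3.46, 3.39, 3.15 and 3.33, a difference of 2.10 ± 0.19 (SE, n = 5, limma adjusted p = 4.86e-06). Lumbar M1 was below the other lumbar libraries and the sacral libraries were close together. The transcript Gm20440 (log2 difference 1.96 ± 0.21 SE) lies over both genes on the same strand, so its reads and theirs could have been divided or left out in counting. Hoxc10 was 0.50 ± 0.13 (SE) higher in sacral DRG and did not pass (limma adjusted p = 0.0951), with M8 lower in sacral than in lumbar DRG.

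The Hox genes upregulated in lumbar DRG were Hoxc8, Hoxb9 and Hoxb7. Hoxc8 stood at 1.96, 1.98, 1.74, 1.92 and 2.26 log2 RPKM in the lumbar DRG of M1, M3, M5, M7 and M8 and at -0.88, -0.51, 0.74, -0.52 and 0.54 in sacral DRG. Sacral M5 and M8 were higher than the other sacral libraries and still below every lumbar library. It fell by 2.10 ± 0.33 on the log2 scale (SE, n = 5, limma adjusted p = 0.00269), and Gm20398 overlaps it on the same strand. Hoxb9 was at 2.16, 2.26, 1.98, 1.95 and 2.12 log2 RPKM in lumbar DRG and at 0.78, 0.98, 0.21, 0.58 and 0.69 in sacral DRG, and fell by 1.44 ± 0.15 (SE, n = 5, limma adjusted p = 2.74e-05). Its values within each level were close beside the gap between them. Hoxb7, which overlaps Hoxb8, fell by 0.89 ± 0.18 (SE, limma adjusted p = 0.0259), and of the fits without 1 embryo it passed only without M8. Hoxa7 was 3.01 ± 0.41 (SD, n = 5) in lumbar and 2.17 ± 0.35 in sacral DRG without overlap and missed the threshold (limma adjusted p = 0.0569).

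There were 20 Hox identifiers below the filter, which are given as values. In sacral against lumbar DRG, the reads summed over 5 libraries were 75 against 2 for Hoxd12, 205 against 43 for Hoxc13, 347 against 135 for Hoxa11 and 116 against 434 for Hoxb8. These 4 were chosen after their values were seen. The first 3 were higher in the sacral library of all 5 embryos, and Hoxb8 was lower in 4 of the 5. The other 16 had log2 differences between -1.33 (Hoxa13, 13 lumbar and 0 sacral reads) and 1.46 (Hoxd13, 0 and 25 reads), and among the anterior genes Hoxa2 gave 229 and 360 reads and Hoxd3 363 and 563. The exact two-sided sign-flip permutation test over 5 embryos cannot go below a p of 0.0625, which it reached for Hoxd12, Hoxc13 and Hoxa11. Of the 8 tested genes of the TALE family, the homeodomain partners of Hox proteins, none passed the test in limma, with 2 at an unadjusted p under 0.05. Of these 2, 1 was higher in sacral and 1 in lumbar DRG, against 5.83% and 6.55% of all genes tested.

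**Figure D2:**
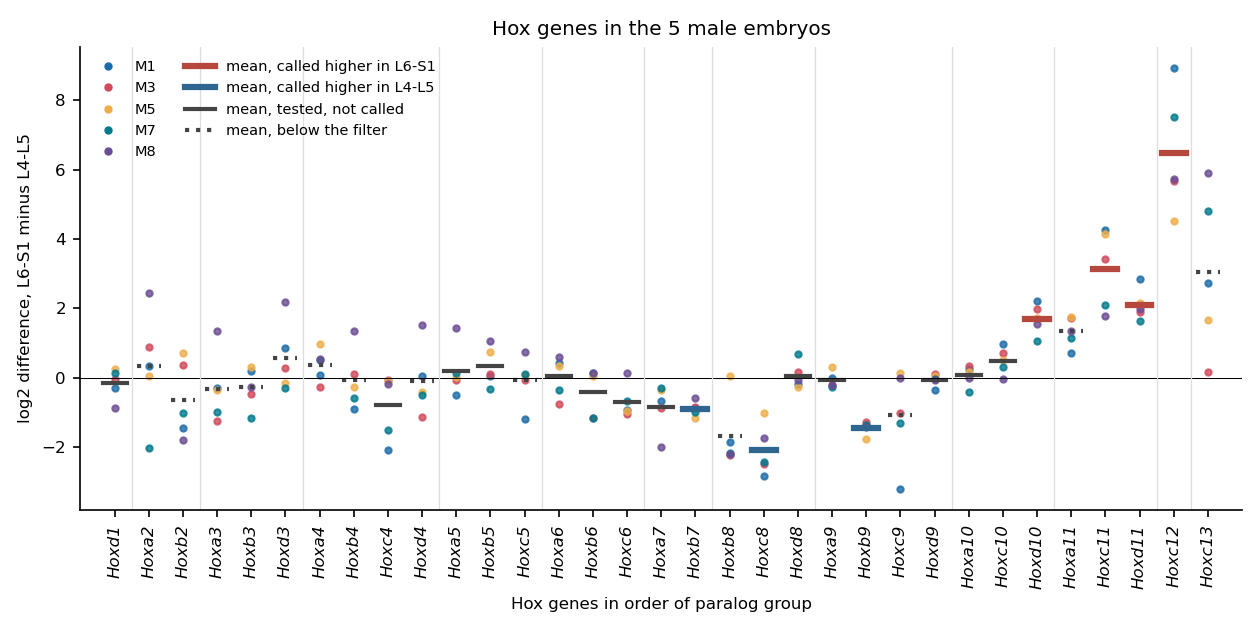
Sacral minus lumbar difference (log2 RPKM) of 33 Hox identifiers in each of the 5 male embryos, in order of paralog group, with a bar at the mean, coloured where the gene was called and dotted where it was below the filter. All 5 points of Hoxd10, Hoxd11, Hoxc11 and Hoxc12 lie above 0 and all 5 of Hoxb7, Hoxc8 and Hoxb9 below it.

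Cartpt encodes the precursor of the neuropeptide CART. It was at 0.16, 0.20, -0.67, 0.94 and 0.78 log2 RPKM in the lumbar DRG of M1, M3, M5, M7 and M8 and at 3.37, 4.11, 3.22, 4.09 and 3.61 in sacral DRG, or 166 against 1647 reads over the 5 libraries of each level. All 5 sacral libraries were above all 5 lumbar libraries by a wide margin. The difference was 3.40 ± 0.37 (SE, n = 5, limma adjusted p = 3.6e-05). The study named Cartpt from male and female embryos pooled, these samples among them, so its direction is not independent evidence.

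Penk, the enkephalin precursor, stood at 2.49, 2.34, 2.96, 2.88 and 2.68 log2 RPKM in lumbar DRG and at 3.82, 3.66, 3.60, 3.59 and 3.96 in sacral DRG. The sacral libraries were within a narrow range and did not overlap the lumbar ones. Penk rose by 1.05 ± 0.16 (SE, n = 5, limma adjusted p = 0.00206), and A830012C17Rik overlaps it on the opposite strand. Nmb, the neuromedin B precursor, went the other way. Its values were 2.82, 2.56, 2.39, 2.81 and 2.19 log2 RPKM in lumbar DRG and 1.44, 1.84, 1.55, 1.28 and 1.96 in sacral DRG, a fall of 0.94 ± 0.16 on the log2 scale (SE, n = 5, limma adjusted p = 0.0067) without overlap. Sec11a overlaps Nmb on the same strand, its reads could not be recovered, and it missed the threshold without M1 (limma adjusted p = 0.0733) and without M7 (0.0505). Of 11 neuropeptide precursors tested, 2 rose and 1 fell in sacral DRG, against 0.211% and 0.32% of all genes tested. Their median was 0.24. Tac1, the precursor of substance P, was 5.89 ± 0.33 (SD, n = 5) in lumbar and 5.23 ± 0.24 in sacral DRG and missed the threshold (limma adjusted p = 0.0542).

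Chrna3 and Chrnb4 encode subunits that form nicotinic acetylcholine receptors together, and the genes are neighbours on chromosome 9 (mm9), on the minus strand at chr9:54859150-54874366 and chr9:54875963-54896351. Chrna3 was at 1.21, 1.69, 0.30, 1.95 and 1.29 log2 RPKM in the lumbar DRG of M1, M3, M5, M7 and M8 and at 2.07, 2.94, 2.17, 3.69 and 2.73 in sacral DRG. Chrnb4 was at 0.79, 1.16, 0.95, 0.60 and 0.96 in lumbar DRG and at 2.0, 3.0, 2.02, 3.20 and 2.35 in sacral DRG. Both genes were highest in sacral M7, and neither overlapped between the levels. Chrna3 rose by 1.43 ± 0.26 (SE, n = 5, limma adjusted p = 0.00952), which missed the threshold without M5 (limma adjusted p = 0.0822). Chrnb4 rose by 1.62 ± 0.29 (SE, n = 5, limma adjusted p = 0.00765), with a limma adjusted p = 0.0497 without M7. The other 3 of 5 tested nicotinic subunits did not pass, and their log2 differences lay between -0.26 and -0.01. The choline transporter gene Slc5a7 rose by 1.14 ± 0.26 (SE, limma adjusted p = 0.0481), with some overlap of the levels, and passed without M8 but not without any other embryo (limma adjusted p from 0.122 to 0.161). Slc5a7 is also on the list of autonomic neurons, which use nicotinic receptors. Of its 16 genes 3 passed the filter, with a median of 0.52, and Slc5a7 alone was called. Of these 3 genes 1 was lower in sacral DRG in all 5 embryos, and the lowest difference was -0.47. Chat, the choline acetyltransferase gene, gave 3 lumbar and 1 sacral reads over 5 libraries each.

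The 250 bases before the start of the sacral genes Chrna3, Chrnb4 and Cartpt and of the lumbar gene Pvalb are printed so that the sequence at genes that moved in opposite directions can be read beside the values. They come from the mm9 genome, with starts from GENCODE M1, and are written 5′ to 3′ on the minus strand of each gene, at chr9:54874367-54874616, chr9:54896352-54896601, chr13:100670639-100670888 and chr15:78036831-78037080. Capitals mark matches to a cyclic AMP response element (TGACGTCA), the TATA box motif (TATAAA), the motif CCAAT or the motif GGGCGG of GC boxes, searched on both strands.
Chrna3: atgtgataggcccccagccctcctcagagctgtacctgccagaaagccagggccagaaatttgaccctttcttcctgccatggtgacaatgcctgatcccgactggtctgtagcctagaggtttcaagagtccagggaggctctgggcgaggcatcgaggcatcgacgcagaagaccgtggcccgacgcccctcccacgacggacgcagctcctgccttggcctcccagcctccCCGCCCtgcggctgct
Chrnb4: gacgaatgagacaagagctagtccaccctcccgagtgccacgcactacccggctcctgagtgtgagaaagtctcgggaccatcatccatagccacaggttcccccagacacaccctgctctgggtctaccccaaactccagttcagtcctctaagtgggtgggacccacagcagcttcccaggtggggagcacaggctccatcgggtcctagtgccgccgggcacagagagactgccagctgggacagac
Cartpt: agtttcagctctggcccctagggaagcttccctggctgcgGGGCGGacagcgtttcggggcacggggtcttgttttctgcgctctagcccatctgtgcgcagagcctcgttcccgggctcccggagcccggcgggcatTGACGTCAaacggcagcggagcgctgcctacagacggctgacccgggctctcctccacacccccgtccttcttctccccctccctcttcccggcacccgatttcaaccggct
Pvalb: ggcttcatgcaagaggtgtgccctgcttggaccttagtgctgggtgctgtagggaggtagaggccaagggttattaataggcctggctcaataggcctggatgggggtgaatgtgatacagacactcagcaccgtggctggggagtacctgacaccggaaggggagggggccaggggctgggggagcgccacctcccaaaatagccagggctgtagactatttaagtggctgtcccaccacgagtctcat
Cartpt held TGACGTCA from 112 to 105 bases before its start, a motif in 2.58% of 11721 windows of protein coding genes tested, and GGGCGG from 210 to 205 bases before it. Chrna3 held GGGCGG on the other strand, 16 to 11 bases before the start, as 55.4% of the windows did on either strand. The Chrna3 window differs from the one before the RefSeq start, so that distance depends on the start used. Chrnb4 and Pvalb held none of the 4 motifs, and TATAAA was in 6.88% and CCAAT in 35.2% of windows. A match is a description of the letters only.

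Other sacral genes encode a channel, an enzyme, secreted proteins and guidance cues. Cacna1e, a subunit of an R-type calcium channel, stood at 0.43, 0.42, 0.14, 0.50 and 0.74 log2 RPKM in lumbar DRG and at 0.72, 1.43, 2.06, 2.44 and 1.82 in sacral DRG. Sacral M1 overlapped the lumbar range and the other sacral libraries did not. The difference was 1.25 ± 0.22 (SE, n = 5, limma adjusted p = 0.00776) and missed the threshold without M5 (limma adjusted p = 0.122). Srd5a2, a steroid 5-alpha reductase, was 0.14 ± 1.73 (SD, n = 5) in lumbar and 2.32 ± 0.41 in sacral DRG. Lumbar M5, at -2.81, was far below the other lumbar libraries. Its difference of 2.19 ± 0.49 (SE, limma adjusted p = 0.0481) passed in none of the fits without 1 embryo and was 1.503 without M5.

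Several genes of secreted or matrix proteins were called in the sacral direction, and no list of such genes was tested. Thbs1 (thrombospondin 1) rose by 1.53 ± 0.29 (SE, n = 5), Thsd7a by 1.22 ± 0.24, C1qtnf7 by 1.45 ± 0.27 and the secreted Wnt inhibitor Sfrp2 by 1.19 ± 0.27, with limma adjusted p-values of 0.0132, 0.0155, 0.0123 and 0.0458. Thbs1 was at 1.42 to 2.23 log2 RPKM in lumbar DRG and at 2.84 to 4.14 in sacral DRG. Chosen after their values were seen, Col12a1 rose by 1.18 ± 0.24, Emilin1 by 1.16 ± 0.25 and the integrin subunit Itga5 by 0.64 ± 0.14, also without overlap between the levels. Emilin1 had passed the filter through its sacral mean only, so its sign followed from the filter. Of the fits without 1 embryo Itga5 passed in none, Thbs1, C1qtnf7, Col12a1 and Emilin1 passed only without M7, Thsd7a only without M8 and Sfrp2 only without M3. Without M5 the limma adjusted p-values reached 0.281 for Emilin1 and 0.252 for Sfrp2. Genes on the opposite strand overlap Thsd7a, C1qtnf7, Sfrp2 and Col12a1. A430110N23Rik rose by 1.27 ± 0.28 (SE, limma adjusted p = 0.0387), was highest in sacral M7 and passed in none of the fits without 1 embryo.

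Slit3, a secreted repellent of growing axons, was at 0.57, 0.62, 0.92, 0.59 and 0.80 log2 RPKM in lumbar DRG and at 1.59, 1.44, 1.56, 1.77 and 1.71 in sacral DRG. The libraries of each level were close together and the levels well apart. Slit3 rose by 0.92 ± 0.20 (SE, n = 5, limma adjusted p = 0.0409), and Efnb3, an ephrin ligand, by 0.92 ± 0.21 (limma adjusted p = 0.0458). These were the 2 called genes of 56 axon guidance genes tested, none of which was called in the lumbar direction. At an unadjusted p under 0.05 there were 13 higher in sacral and 1 in lumbar DRG, and the median was 0.12. Over all genes tested these shares were 5.83% and 6.55%, and for called genes 0.211% and 0.32%. Examples that did not pass were the receptors Ephb4 (0.63, limma adjusted p = 0.0542) and Neo1 (0.48, 0.11), the cue Ntn1 (0.81, 0.158) and, in the lumbar direction, Sema7a (-0.65, 0.349). When an embryo was left out Slit3 passed in no fit and Efnb3 only without M7. Gm12122 and SNORA17 overlap Slit3 on the same strand, and Gm12123 overlaps it on the opposite strand.

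Pvalb, which marks proprioceptors in the DRG, was at 3.32, 3.19, 3.04, 3.60 and 3.03 log2 RPKM in the lumbar DRG of M1, M3, M5, M7 and M8 and at 2.50, 1.71, 2.03, 0.83 and 2.01 in sacral DRG. The levels did not overlap, and M7 had both the highest lumbar and the lowest sacral value. Pvalb fell by 1.42 ± 0.20 on the log2 scale (SE, n = 5, limma adjusted p = 0.00108). It was the only one of 14 tested genes of proprioceptors and large myelinated neurons to pass, with 5 lower and 1 higher in sacral DRG at an unadjusted p under 0.05 and a median of -0.44. Etv1, a transcription factor of these neurons, was 5.26 ± 0.34 (SD, n = 5) in lumbar and 4.51 ± 0.12 in sacral DRG without overlap and did not pass (limma adjusted p = 0.0793). The neurofilament gene Nefh differed by -0.74 (limma adjusted p = 0.211), the potassium channel subunit Kcns1 by -1.31 (0.0575) and, in the sacral direction, Calb1 by 0.72 (0.191), and in these 3 genes the levels overlapped.

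Ntf3 and Bdnf encode neurotrophins, the ligands of the receptors TrkC and TrkB. Ntf3 gave 236, 200, 112, 234 and 196 reads in the lumbar DRG of M1, M3, M5, M7 and M8 and 34, 47, 32, 0 and 20 in sacral DRG. Sacral M7 was blank, and all sacral libraries were below all lumbar ones. The log2 difference was -3.81 ± 0.74 (SE, n = 5, limma adjusted p = 0.0162), which was -2.56 without M7, and the limma adjusted p was 0.058 without M1 and 0.0575 without M5. Bdnf was at 2.26, 2.66, 1.66, 2.58 and 2.76 log2 RPKM in lumbar DRG and at 1.36, 1.28, 0.49, 1.5 and 0.83 in sacral DRG. It fell by 1.29 ± 0.25 (SE, n = 5, limma adjusted p = 0.0172) without overlap, and passed without M7 but not without any other embryo (limma adjusted p from 0.0576 to 0.0822). Of 13 neurotrophic ligands and receptors tested these 2 passed, against 0.32% of all genes tested in the lumbar direction, and the median was -0.17. Ntf3 had passed the filter through its lumbar mean only, so its sign followed from the filter.

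Gabrg1, a gamma subunit of the GABA-A receptor, was at 2.56, 2.33, 2.05, 2.57 and 2.06 log2 RPKM in lumbar DRG and at 1.29, 0.90, -0.09, 0.31 and 1.08 in sacral DRG. It fell by 1.62 ± 0.22 (SE, n = 5, limma adjusted p = 0.000548) without overlap. Kcnk9, a leak potassium channel of the TASK type, gave 64, 79, 44, 30 and 69 reads in lumbar DRG and 12, 2, 3, 10 and 3 in sacral DRG. It was near the floor in all sacral libraries, and fell by 3.58 ± 0.66 on the log2 scale (SE, limma adjusted p = 0.0123). Without M5 the limma adjusted p of Kcnk9 was 0.128, and without M3 and M8 it was 0.0801 and 0.0601. Cacng2, which encodes stargazin, an auxiliary subunit of AMPA receptors, fell by 1.27 ± 0.27 (SE, limma adjusted p = 0.0359) without overlap and passed in none of the fits without 1 embryo. Kcnk9 and Cacng2 had passed the filter through their lumbar mean only, so their signs followed from the filter.

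The cadherins Cdh12 and Cdh9, cell adhesion molecules, were lower in sacral DRG. Cdh12 was at 3.95, 3.65, 3.19, 4.11 and 3.81 log2 RPKM in lumbar DRG and at 1.79, 2.09, 1.14, 2.51 and 1.63 in sacral DRG. The gap was wide in every embryo, and Cdh12 fell by 1.91 ± 0.24 (SE, n = 5, limma adjusted p = 0.000281). A U6 gene overlaps Cdh12 on the same strand. Cdh9 fell by 1.46 ± 0.31 (SE, limma adjusted p = 0.0359). Layn (layilin) fell by 1.54 ± 0.25, Ankrd34c by 1.36 ± 0.28, Gm765 by 2.27 ± 0.38 and the secreted lectin Reg3b by 2.12 ± 0.46, with limma adjusted p-values of 0.00308, 0.0294, 0.00468 and 0.0409. When an embryo was left out Cdh9 and Ankrd34c passed in no fit and Reg3b only without M8 (limma adjusted p = 0.23 without M5), whereas Cdh12, Layn and Gm765 passed in all 5. Sacral M5, at -1.59, was far below the other sacral libraries for Reg3b. The lincRNA 9430021M05Rik fell by 1.69 ± 0.38 (SE, limma adjusted p = 0.0481) and passed only without M3 among these fits. It had passed the filter through its lumbar mean only, so its sign followed from the filter. Gm12166 has 2 overlapping identifiers on the same strand, which fell by 1.39 ± 0.26 and 1.46 ± 0.27, may share reads and missed the threshold without M1 and without M7.

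**Figure D3:**
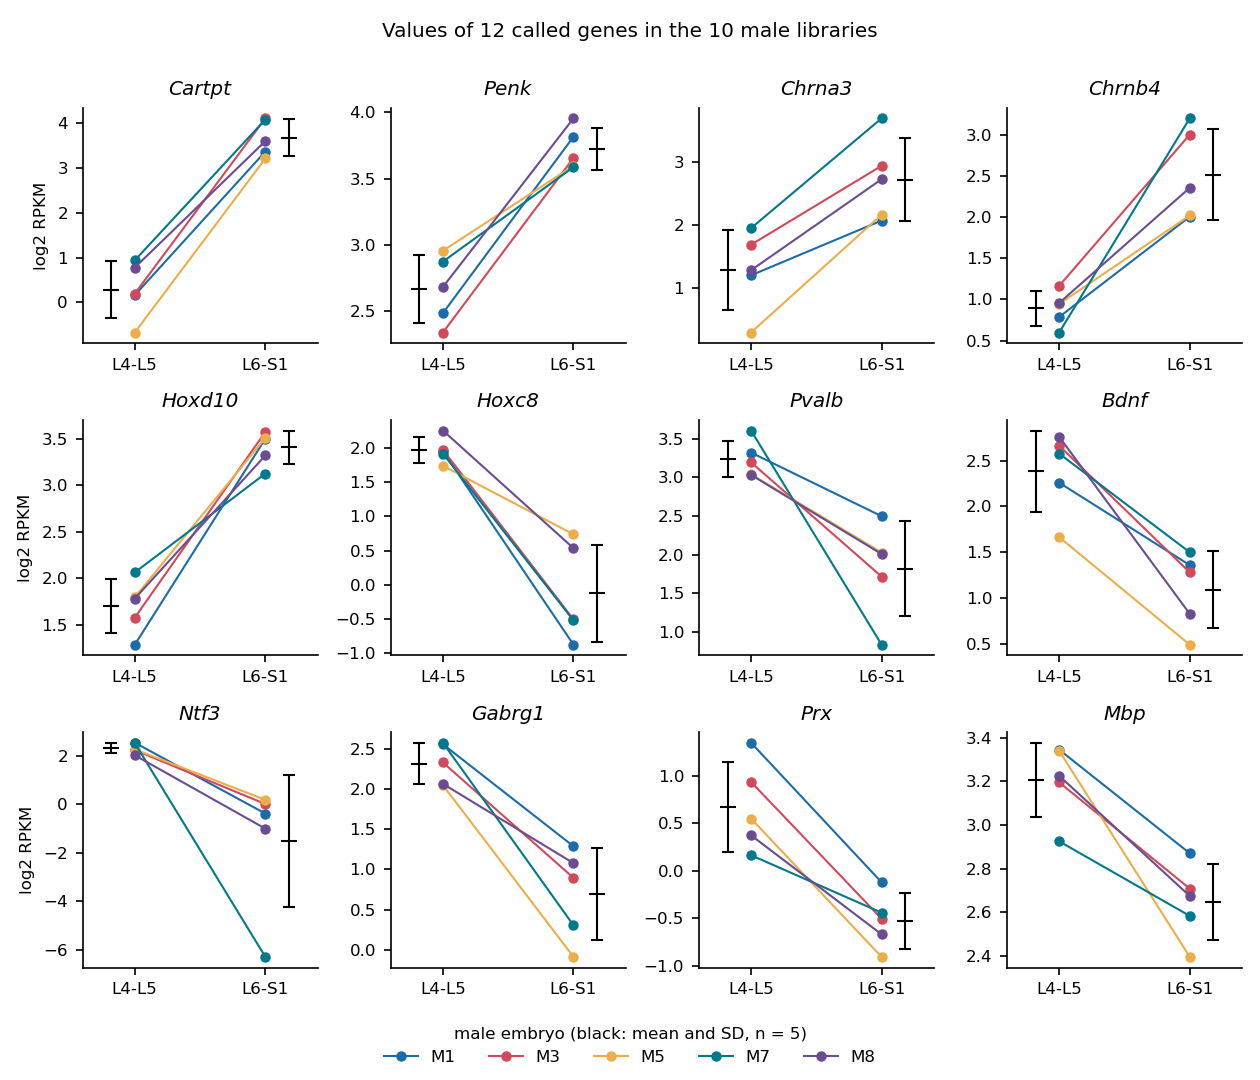
Log2 RPKM of 12 genes in the lumbar and sacral DRG of each male embryo, with a line joining the 2 libraries of an embryo and black bars for the mean and SD of 5. The lines of Cartpt, Penk, Chrna3, Chrnb4 and Hoxd10 rise in all 5 embryos and those of Hoxc8, Pvalb, Bdnf, Ntf3, Gabrg1, Prx and Mbp fall in all 5.

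Prx and Mbp, both proteins of the myelin that Schwann cells form, were lower in sacral DRG. Prx (periaxin) was at 1.35, 0.94, 0.55, 0.17 and 0.38 log2 RPKM in lumbar DRG and at -0.12, -0.50, -0.91, -0.44 and -0.67 in sacral DRG, and fell by 1.20 ± 0.24 (SE, n = 5, limma adjusted p = 0.0215). Mbp (myelin basic protein) was at 3.34, 3.20, 3.34, 2.93 and 3.23 in lumbar and at 2.87, 2.71, 2.40, 2.58 and 2.68 in sacral DRG, and fell by 0.56 ± 0.11 (limma adjusted p = 0.0215). Neither overlapped between levels, but each passed without M7 and not without any other embryo, with a limma adjusted p of 0.18 for Prx and 0.19 for Mbp without M5. Genes on the opposite strand overlap both Prx and Mbp. Of 20 listed genes of Schwann cells and myelin 15 were tested. Prx, at a sacral mean of -0.53 log2 RPKM, entered through its lumbar mean only, so its sign followed from the filter. All 15 had a negative difference, with a median of -0.41 against -0.02 over all genes tested. At an unadjusted p under 0.05 there were 8 lower, against 6.55% of all genes tested. These values describe the genes that entered the test. S100b (-0.67), Gjc3 (-0.84), Egr2 (-1.16) and Mal (-0.64) were among those that did not pass, with limma adjusted p-values from 0.0608 to 0.218. Of the list 0 passed without M1, M3, M5 or M8 and 3 without M7. Of the satellite glia list limma and voom called 0 of 12, with 1 higher and 3 lower at an unadjusted p under 0.05 in limma and a median of -0.22.

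The study named 20 genes for the levels at E18.5 from male and female embryos pooled. These samples were among them, so the direction of the 20 genes is not independent evidence. The contrast here is of male embryos alone, so a gene that did not pass is no result against the pooled comparison. Of the 18 that were tested 3 passed in the sacral direction (Cartpt, Chrna3 and Chrnb4) and 2 in the lumbar direction (Pvalb and Bdnf), and at an unadjusted p under 0.05 these counts were 10 and 6. In the lumbar direction the cold channel gene Trpm8 was 2.41 ± 0.69 (SD, n = 5) log2 RPKM in lumbar and 0.78 ± 0.42 in sacral DRG (limma adjusted p = 0.0569), and the muscarinic receptor gene Chrm2 was 2.75 ± 0.53 and 1.61 ± 0.44 (0.052). Lumbar M5 was the lowest lumbar library for both and overlapped the sacral range. In the sacral direction the serotonin receptor gene Htr3a differed by 1.16 ± 0.29 (SE, limma adjusted p = 0.0793), the heat and capsaicin channel gene Trpv1 by 0.91 ± 0.27 (0.136), Snai2 by 0.89 ± 0.28 (0.169), Gabra3 by 0.81 ± 0.26 (0.176) and Sstr4 by 0.63 ± 0.20 (0.175).

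The other 2 of the 20 were below the filter. Esr1, an estrogen receptor, gave 114, 106, 67, 97 and 178 reads in lumbar DRG and 311, 454, 300, 441 and 309 in sacral DRG, a log2 difference of 1.70 ± 0.49 (SD of 5 embryos). The levels did not overlap. Htr2c, a serotonin receptor, gave 51, 77, 29, 50 and 56 reads in lumbar and 25, 29, 8, 17 and 32 in sacral DRG, a log2 difference of -1.37 ± 0.58 (SD of 5 embryos). Both gave the smallest exact sign-flip permutation p possible with 5 embryos, 0.0625. Of the 298 genes of the study's 10 curated sets of receptors, channels and transcription factors 226 were tested, with a median of -0.06. In sacral DRG 3 rose and 6 fell, against 0.211% and 0.32% of all genes tested. At an unadjusted p under 0.05 there were 21 higher and 28 lower, against 5.83% and 6.55%. Among the 6, Ntf3, Cacng2 and Hoxc8 had passed the filter through their lumbar mean only.

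Markers of other cells of the dissected tissue moved by different amounts. Of 14 tested genes of fibroblasts and meninges limma and voom called 0, with a median difference of 0.53. At an unadjusted p under 0.05 there were 9 higher in sacral DRG and none lower, against 5.83% and 6.55% of all genes tested. The median of the list lay between 0.35 and 0.80 in each of the 5 embryos. Its reads summed to 25926 to 69681 in lumbar and 48795 to 82167 in sacral libraries. Col1a1 was 5.83 ± 0.20 (SD, n = 5) log2 RPKM in lumbar and 6.54 ± 0.32 in sacral DRG without overlap (limma adjusted p = 0.205). Ogn (0.55), Twist1 (1.31), Foxc1 (0.83) and Pdgfra (0.62) gave limma adjusted p-values from 0.11 to 0.172. The part that these cells had in the higher sacral values of Thbs1, Col12a1, Emilin1, Slit3 and Sfrp2 was not tested.

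Skeletal muscle genes were high in 1 library. The list summed to 100640 reads in sacral M7 and to 3616 to 32402 in the other 9 libraries, and Actc1, a muscle actin, was at 7.53 log2 RPKM in sacral M7 and at 3.59 to 5.89 elsewhere. Limma and voom called 0 of the 16 tested genes, with 0 at an unadjusted p under 0.05 in limma, and their median difference was 0.38, and -0.08 without M7. Of 9 macrophage genes none passed, with 2 higher in sacral DRG at an unadjusted p under 0.05 and a median of 0.43. Among them Cd68 differed by 0.77 and Mrc1 by 0.62, at limma adjusted p-values of 0.167 and 0.213.

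Lists of neuronal classes held few calls beyond those named. Of the 12 shared sensory neuron markers limma called 0, with 1 lower in sacral DRG at an unadjusted p under 0.05 and a median of -0.23, and Snap25, a synaptic vesicle fusion protein, was -0.49 (limma adjusted p = 0.306). Of 11 genes of low-threshold mechanoreceptors limma called 0, with a median of 0.04. At an unadjusted p under 0.05 there were 3 higher, against 5.83% of all genes tested. Of 18 genes of nociceptors and thermoreceptors limma called 0, with 2 higher and 2 lower at an unadjusted p under 0.05 and a median of -0.14, whereas voom on recovered reads called Trpm8 and Tac1 in the lumbar direction. Limma and voom both called 0 of the genes on the lists of the cell cycle (19 tested by limma, median -0.12), cholesterol synthesis (21, -0.16), cartilage (4, 0.24), endothelium (5, 0.13), erythroid cells (5, 0.31) and immediate early genes (8, 0.14). At an unadjusted p under 0.05 these 6 lists gave 1, 3, 1, 1, 0 and 1 genes in limma. Chosen after their values were seen and on none of these lists, Ccnd1 (cyclin D1) fell by 0.70 ± 0.13 and Racgap1, which acts in cytokinesis, by 0.74 ± 0.13 on the log2 scale (SE, limma adjusted p = 0.0155 and 0.00669), and Oraov1 overlaps Ccnd1 on the opposite strand and AC139317.1 overlaps Racgap1 on the same strand. Ccnd1 passed only without M7 and without M8, and Racgap1 missed the threshold without M1 (limma adjusted p = 0.0576). Of the spinal cord list 1 of 13 genes passed the filter and was not called.

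**Figure D4:**
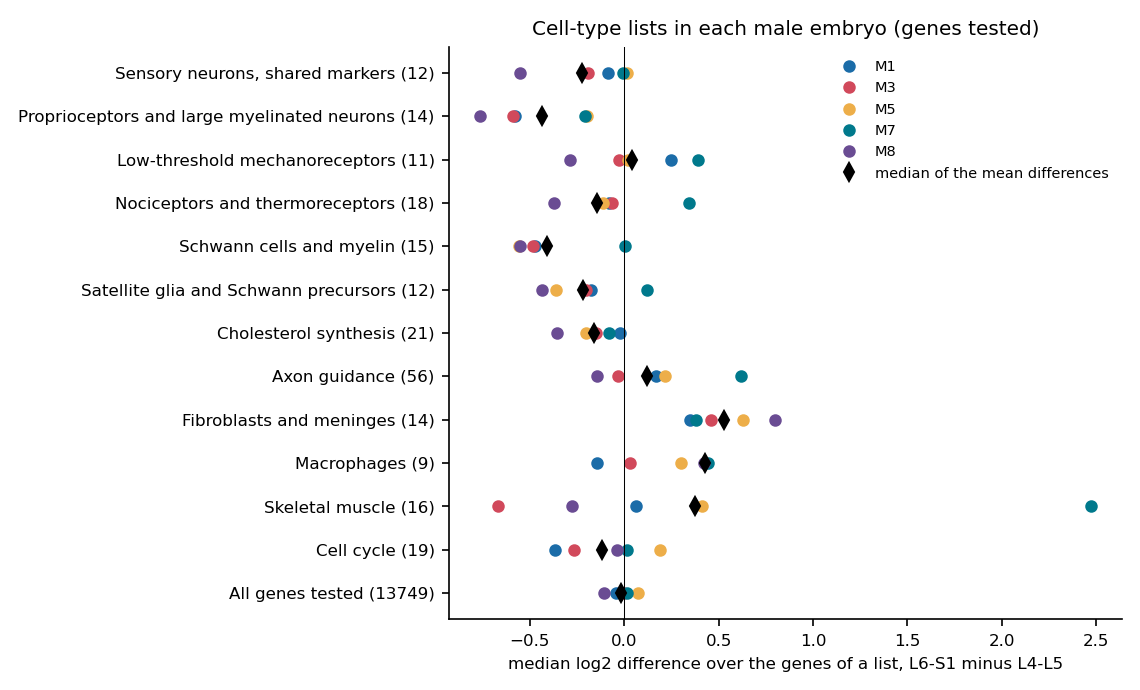
Median sacral minus lumbar difference (log2 RPKM) of 12 gene lists and of all genes tested in each male embryo. All genes tested lie between -0.11 and 0.07, the fibroblast list between 0.35 and 0.80, and the muscle list reaches 2.48 in M7.

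Female embryos were used to ask whether the level difference depended on sex. In the female libraries 71 of the 73 genes had a mean difference of the same sign, and the 2 exceptions were Arf5 and Gm12040. The share with the same sign was not counted over all genes tested. The interaction of level and sex passed for 0 genes in limma, with 434 at an unadjusted p under 0.05 and a smallest adjusted p of 0.468, and for 0 genes with voom on recovered reads (378 at an unadjusted p under 0.05). Of the 73 genes 12 had an unadjusted interaction p under 0.05, against 434 of the 13749 genes tested. The 73 were chosen on the male difference, which is part of this contrast, so the 12 support nothing by themselves. Chosen after its values were seen, Arf5, a small GTPase of vesicle transport, fell by 1.14 ± 0.18 (SE, n = 5) in males and was 0.20 ± 0.18 higher in females. Gcc1 overlaps Arf5 on the opposite strand. Among the Hox genes Hoxb9 fell by 1.44 ± 0.15 in males and gave -0.81 ± 0.15 in females, where the interaction had an unadjusted limma p of 0.00792 and a limma adjusted p = 0.995. For Cartpt, Penk, Chrna3, Chrnb4, Pvalb, Bdnf, Ntf3 and Gabrg1 the female means were 2.92, 1.10, 1.16, 1.08, -1.23, -1.56, -2.32 and -1.86, and no interaction p was under 0.05.

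**Figure D5:**
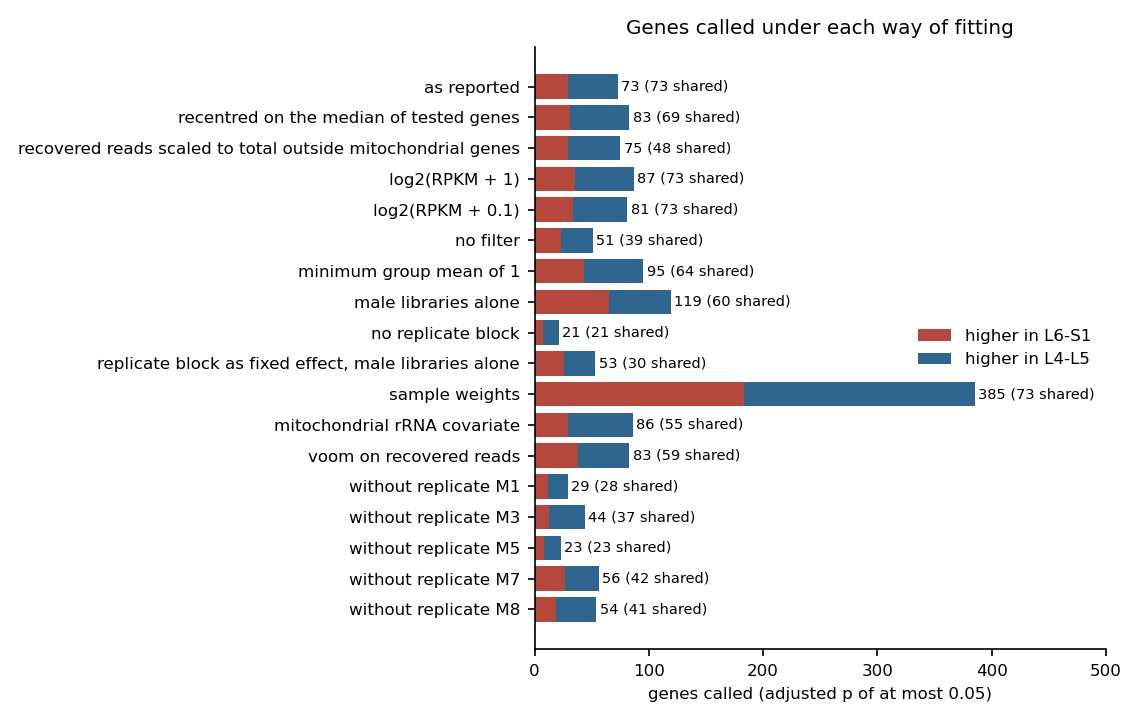
Number of genes higher in sacral and in lumbar DRG at an adjusted p of 0.05 under the main processing and 17 alternatives. Counts in all run from 21 without the embryo block to 385 with sample weights, against 73.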

How the data were processed

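The authors amplified total RNA (Ovation RNA-Seq v2), made Nextera XT libraries and, per the paper's methods and the submitters' processing notes, aligned reads to mm9 with Subread, counted Ensembl genes with featureCounts, scaled with TMM (edgeR) and deposited log2 RPKM values. Use of strand in counting is not stated. Each library had a median of 0.93 log2 RPKM over genes with a value. Here, reads were recovered where values were whole multiples of 1 read (98.27% of values, tolerance 0.05). They served for depth, for scaling checks and for blanks, which were set to 0.5 reads, or to 1 log2 unit below the gene's lowest value where reads were not recovered. The main test was limma 3.58.1 (R 4.3.3) on all 20 libraries with 4 group means, a trended prior and embryo as a block. The 2 libraries that share a code were taken to come from 1 embryo, and their estimated correlation was 0.347. Scripts were tested on simulated data.

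Genes named were the 15 largest differences in each direction among called genes with a symbol that moved the same way in 5 of 5 embryos, and members of gene lists. Members and lists were chosen with earlier results of these data known. Motifs were searched in windows of GENCODE M1 starts. Counting intervals cover counting error only.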

Additional observations from a re-analysis of the deposited data

Results flagged for a closer look

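In 18 of 214 groups of 5 compared, 10 of them among the 146 of called genes, 1 library stood apart from the others of its level, with a gap to the nearest library above the 95% critical value of Dixon's test for 5 samples. Chance alone does this in about 5% of groups. The mitochondrial rRNA share was 61.44% in lumbar M5, against 30.82% in the next library. Among genes that passed the test, lumbar M1 was low for Hoxd11 (0.395 log2 RPKM) and lumbar M8 was high for Cdon (1.83). Sacral M3 was high for Cdo1 (3.59) and Polr2j (2.24), and sacral M7 was high for A430110N23Rik (2.33) and Fam101a (0.623). Sacral M7 was low for Ntf3, where the blank was set to -6.29 log2 RPKM. Sacral M1 was low for 9430021M05Rik (-3.23), and sacral M5 was low for Reg3b (-1.59) and Gm2115 (1.43). All 5 embryos shared the direction for each of these 10 genes, so leaving out 1 embryo could not turn it.

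Among genes that did not pass, lumbar M5 was low for Trpm8 (1.18), Chrm2 (1.83), Gabra3 (1.05) and Sema7a (0.752), which is the library with the fewest reads outside mitochondrial genes. Sacral M8 was low for Hoxa7 (1.57), sacral M7 was low for Foxc1 (1.73) and sacral M3 was high for Tac1 (5.65). The part of depth in these values was not tested.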

How the results depend on the processing

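Of 17 alternative settings, none turned the direction of any of the 106 tested genes followed across them. Part of this was fixed in advance. Of the 73 called genes 71 shared the direction in all 5 embryos, which leaving out 1 embryo cannot turn. Settings that changed only the block, or used male libraries alone, kept the same mean difference. Gene counts were 73 in all, 29 sacral and 44 lumbar. With no replicate block 21 genes passed, 7 sacral and 14 lumbar. The fit on male libraries alone gave 119, of which 65 were sacral, and sample weights gave 385, 183 sacral and 202 lumbar, with all 73 among them. No filter on low values gave 51 genes, 28 of them lumbar, and the replicate block as a fixed effect in male libraries alone gave 53, 27 of them lumbar. Leaving out an embryo gave 23 (without M5) to 56 (without M7) genes, 8 to 27 sacral and 15 to 35 lumbar. The interaction stayed at 0 genes in all 15 fits that included it. The other settings gave 75 to 95 genes, of which 48 to 73 were among the main 73. They were recentring (83), scaling to reads outside mitochondrial genes (75), log2(RPKM + 1) (87), log2(RPKM + 0.1) (81), a minimum group mean of 1 (95), a mitochondrial rRNA covariate (86) and voom on recovered reads (83).

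Depth limits low genes most in M5, where 7077383 reads of lumbar DRG lay outside mitochondrial genes. A p above the threshold does not show that levels were alike. The cause of the lower counts without M1 and M5 was not tested.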
